A study of Mus musculus with 11 samples.

Results

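Oviductal organoids are cystic epithelial cultures grown from digested mouse oviduct, and they were compared here with the oviduct tissue itself. The comparison uses 6 of the 27 libraries, namely those labelled as the 3 oviduct tissue samples and the 3 oviductal organoid lines of wild-type mice, over all genes. Of the 18305 genes with a row of counts, 9477 had enough counts to be tested. The mice were C57BL/6. The organoid lines came from females of 8 to 12 weeks, and each line was founded from the pooled oviducts of at least 6 mice. The age of the mice that gave the tissue samples is not given in the sources used here. Oviducts for culture were digested with collagenase and TrypLE and the cells were embedded in basement membrane extract. The growth medium held R-spondin, Noggin (a BMP antagonist), EGF, the TGF-β receptor inhibitor A83-01, N-acetylcysteine and B27, with a ROCK inhibitor at derivation, and the methods state WNT and estrogen in the medium unless noted otherwise. Neither group carried a mutation or transgene. Side comparisons use 3 oviductal organoid lines from mice of another strain, with a Cas9-P2A-EGFP cassette in the ROSA26 locus (Cas9-GFP organoids). They also use 3 samples of tissue and 2 organoid lines of the ovarian surface epithelium (OSE) of C57BL/6 mice.

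The wall of the oviduct has an inner epithelium, folded over a stroma of fibroblasts and vessels, and an outer coat of smooth muscle that moves the egg along. The epithelium has secretory cells, which depend on PAX8 in the Müllerian duct lineage and release oviductal glycoprotein into the lumen, and multiciliated cells, which are specified by FOXJ1 and RFX factors and beat by means of dynein arms. An epithelial culture in basement membrane extract has no layer of muscle or stroma, and its cells receive growth factors from the medium in place of neighbouring cells.

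Libraries were made from bulk RNA with CEL-Seq2, in which a transcript is read from its 3′ end. Total counts were 825025 to 1561178 in tissue and 1455037 to 2472821 in organoids. Levels are given as CPM, the count of a gene per 1e6 counts of the library size after TMM scaling, in the order of libraries 1, 2 and 3, and a change is the log2 fold change of organoids over tissue with its standard error (SE) from edgeR's quasi-likelihood fit and a Benjamini-Hochberg adjusted p. An absence of counts was read as up to 3 counts, which is 1.89 to 3.56 CPM in tissue and 1.22 to 2.28 CPM in organoids. RNA of the tissues was extracted with Trizol and that of the organoids with a column kit, so the kit and the culture cannot be told apart. Because tissue is a mixture of cell types, an alternative scaling set the 26 epithelial junction and keratin genes with a count in every library equal on average. It moved the median log2 fold change of all genes tested from -0.02 to -1.24, and changes are given relative to the TMM scale unless stated.

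Oviductal organoids lacked most of the RNA of stroma, muscle, vessels and immune cells, had less RNA of motile cilia, and gained RNA of epithelial junctions and keratins, growth factor response, cholesterol synthesis and glycolysis. Of the genes tested, 2298 were lower in organoids (24.2%) and 1771 were higher (18.7%), of which 1855 and 1179 had a log2 fold change beyond 1. A gene was called kept when the 95% interval of its log2 fold change lay within -1 to 1, and this held for 2699 genes (28.5%). Under the epithelial scaling 6568 genes were lower, 326 higher and 727 kept, so higher genes made up 4.73% of the calls in place of 43.5%. Most of the 9477 genes tested were thus lower on that scale. The list counts below are to be read beside these numbers of all genes, on each scale. The libraries of the groups did not overlap for 2252 of the 2298 lower genes and 1725 of the 1771 higher genes. With so few libraries per group this nearly follows from the call itself and adds no support to it. The share over all tested genes was not counted. No count was seen in any organoid library for 253 of the lower genes, whereas 5 of the higher genes had no count in any tissue library.

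**Figure D1:**
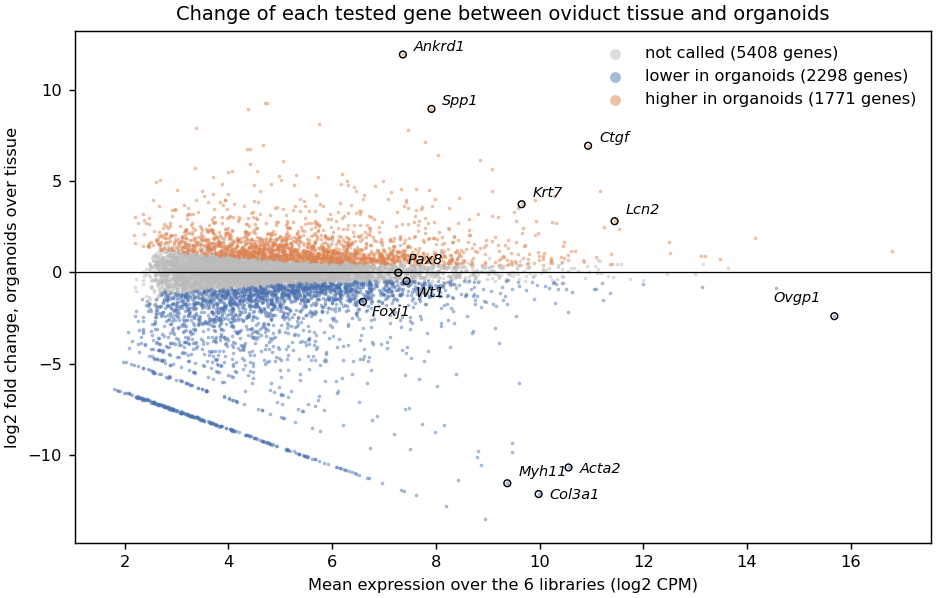
Each point is a tested gene, plotted by its mean level over the 6 libraries (log2 CPM, horizontal) and its log2 fold change of organoids over tissue (vertical), with lower genes in blue, higher genes in orange and the 5408 genes that passed neither call in grey. The named points range from Col3a1 and Myh11 at the foot to Ankrd1 at the top, Pax8 lies on the line of no change, and the slanted rows at lower left are genes with no count in organoids, whose fold change depends on the prior count.

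The muscle coat was almost gone from the organoid libraries. Smooth muscle α-actin, Acta2 (chr19:34241090-34255590, minus strand of GRCm38), stood at 2905, 3096 and 3049 CPM in tissue and at 4.08, 0 and 0 CPM in organoids. Its log2 fold change was -10.67 (SE 0.51, adjusted p = 5.32e-08). The smooth muscle myosin heavy chain Myh11 had 1646, 1259 and 1088 CPM in tissue against 0.408, 0.758 and 0 CPM in organoids. With so few reads in organoids its ratio of tissue over organoids was 3827 by counting, with an exact interval of 1059 to 31606. Every tissue library stood far above every organoid library for both genes. No count in any organoid library was seen for the enteric actin Actg2 (at least 105-fold lower), the intermediate filament Des (at least 87.4-fold), the myosin light chain Myl9 (at least 91.4-fold) or calponin, Cnn1 (at least 57.9-fold). In these bulk samples fewer cells of a type and less RNA per cell cannot be told apart.

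Of the 33 smooth muscle genes, 28 were tested, 27 were lower and 0 were higher (96.4% lower against 24.2% of all genes), and 28 were lower under the epithelial scaling. Their median log2 fold change was -6.62, or -4.90 with the 10 tested members that have no count in organoids set at their bound. The exceptions were proteins that non-muscle cells also use. Tropomyosin 1, Tpm1, was at 391, 344 and 297 CPM in tissue and 233, 190 and 266 CPM in organoids, a change of -0.58 (SE 0.18, adjusted p = 0.0208) that fell within the bounds for a kept gene and lost its call without tissue 1, tissue 2 or organoids 2. Pdlim7, a scaffold of the actin cytoskeleton, overlapped between the groups at a log2 fold change of -0.26 (95% interval -0.74 to 0.22). The actin crosslinker Flna fell by 2.04 on the log2 scale (adjusted p = 1.85e-05) and remained readable in organoids at 46.1, 50.8 and 73.7 CPM.

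Promoters of smooth muscle genes carry the CArG box, the letters bound by serum response factor. In the 250 bases before the start site, on both strands, it was found in 3 of 30 RefSeq promoters of the list (26 of 33 genes matched) and in 1.47% of all 32851 promoters. The stretch of the Myl9 promoter is shown as the member with no organoid count and such a match, with the box in capitals, at chr2:156775263-156775352 on the plus strand of GRCm38.p6, from RefSeq.
Myl9: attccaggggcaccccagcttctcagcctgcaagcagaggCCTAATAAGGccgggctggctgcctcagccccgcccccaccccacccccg

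Stromal RNA was likewise low. Of 49 fibroblast and matrix genes 43 were tested, 40 were lower and 1 higher (93.0% lower against 24.2% of all genes), with 41 lower and 1 higher under the epithelial scaling, and 23 of the 49 had no count in any organoid library. The median log2 fold change was -8.22, or -5.56 with the 20 such members that were tested at their bound. Collagen type I chain Col1a2 stood at 818, 708 and 1456 CPM in tissue and 0 in all 3 organoid lines, at least 567-fold lower. The 11 fibrillar and associated collagens summed to 4125, 3965 and 6776 CPM in tissue and to 0.816, 2.28 and 0.585 CPM in organoids. Col3a1, a collagen of loose connective tissue, had 2 reads in organoids 2 and none in the other lines (1.52, 0 and 0 CPM) against 1621 to 2820 CPM in tissue. The proteoglycan Lum (at least 81.4-fold lower) and the chemokine Cxcl12 (at least 99.4-fold) had no count in organoids, and so did Igf1, a stromal growth factor (at least 95.4-fold).

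Some genes of the stromal list kept RNA in organoids. Vimentin, Vim, the intermediate filament of mesenchyme that many cultured epithelia also make, fell from 175, 178 and 207 CPM to 49.8, 27.3 and 30.4 CPM (log2 fold change -2.35, SE 0.24, adjusted p = 1.16e-05). Fibronectin, Fn1, fell by 1.28 (SE 0.45, adjusted p = 0.0371), a call that ended when any of tissue 1, tissue 2, tissue 3 or organoids 2 was left out. The single riser was Twist1, a transcription factor known from mesenchyme and epithelial-mesenchymal transition. It went from 8.82, 10.7 and 9.97 CPM to 69.0, 60.7 and 69.0 CPM (2.77, SE 0.25, adjusted p = 4.65e-06), and it was also called higher under the epithelial scaling.

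Vessels and blood were lost as well. Of 25 endothelial genes 15 were tested, 13 were lower (86.7% against 24.2% of all genes) and 0 higher, and 15 were lower under the epithelial scaling. The VE-cadherin gene Cdh5 went from 13.9, 21.4 and 27.7 CPM to 0 in each line, and the summed level of the list from 435 to 439 CPM to between 40.4 and 120 CPM. Members that were still read in organoids include genes used by other cells too. The water channel Aqp1 had 4.90, 50.8 and 74.3 CPM in organoids against 114 to 143 CPM in tissue (-1.63, SE 0.57, adjusted p = 0.0365), and its call ended without tissue 1, 2 or 3 or organoids 2. Plvap and Egfl7 overlapped between the groups. Of 8 pericyte genes 5 were tested and 4 were lower (80.0%, with 5 genes lower under the epithelial scaling), among them Rgs5 with no organoid count. The hemoglobin chain Beta-s, a red cell transcript, fell from 672, 800 and 291 CPM to 0.

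Of 19 myeloid genes 13 were tested, 12 were lower (92.3% against 24.2% of all genes) and 1 higher, and the same numbers held under the epithelial scaling. The complement chains C1qa, C1qb and C1qc, made by macrophages, had 31.0 to 191 CPM in tissue and no count in organoids. The leukocyte phosphatase Ptprc had a single read in the 3 organoid lines. Cd14, a co-receptor for bacterial lipopolysaccharide, was the exception and rose from 66.8, 54.6 and 21.1 CPM to 210, 359 and 354 CPM (2.65, SE 0.34, adjusted p = 6.22e-05). Of 8 class II antigen presentation genes 6 were tested, 4 were lower (66.7%) and 1 higher (16.7%, near the 18.7% of all genes), with 5 and 1 under the epithelial scaling. H2-Aa fell from 147, 166 and 302 CPM to 0, while H2-DMb1, which helps to load peptides onto class II molecules, rose by 2.24 (SE 0.36, adjusted p = 0.000313).

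Markers of other cells were rarer in both groups. None of the 17 lymphoid genes with a row in the table was tested, and their summed level was 18.8 to 25.2 CPM in tissue and 4.55 to 13.5 CPM in organoids. Of 10 mesothelial genes 7 were tested, 6 lower (85.7% against 24.2% of all genes) and 1 higher (14.3% against 18.7%), with 6 and 0 under the epithelial scaling. The riser was mesothelin, Msln, at 95.7, 135 and 68.7 CPM in tissue and 242, 217 and 236 CPM in organoids (1.22, SE 0.22, adjusted p = 0.000861), which was not called under the epithelial scaling (0.01). The mesothelial uroplakins Upk3b and Upk1b had no count in organoids. Of 9 adipocyte genes 3 were tested. Cfd was among the 2 lower, with no count in organoids, and Pparg, a nuclear receptor of fat that other cells also make, rose by 2.98 (SE 0.48, adjusted p = 0.000303). Of 20 granulosa, steroidogenic and oocyte genes 4 were tested, 3 lower and 1 higher. The steroidogenic enzyme gene Hsd3b1 (23.9, 129 and 78.7 CPM in tissue) had no count in organoids, while Inhbb, an inhibin and activin subunit, rose from 23.9, 43.9 and 33.2 CPM to 283, 485 and 403 CPM, and with it the sum of the list from a mean of 213 to one of 398 CPM. The basal keratins Krt5 (81.9, 187 and 0 CPM) and Krt14 (25.2, 79.5 and 0 CPM) were read in tissue 1 and 2 but neither in tissue 3 nor in organoids, so basal keratin RNA was uneven among the tissue samples. Its part in other differences was not tested.

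**Figure D2:**
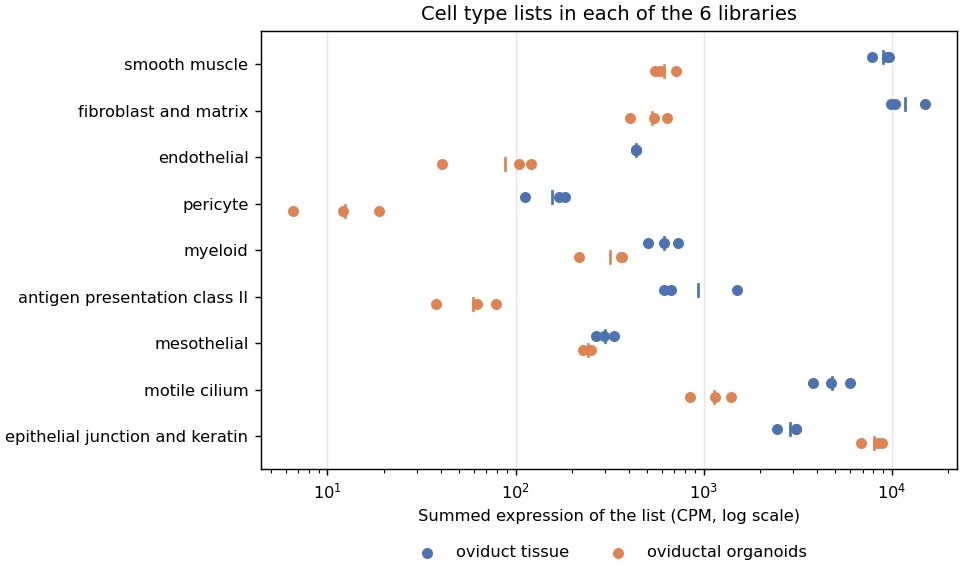
Summed level (CPM, log scale) of each gene list in the 3 oviduct tissue libraries (blue) and the 3 oviductal organoid lines (orange), with a bar at the group mean. Lists of muscle, stroma, vessels, immune cells and cilia lie lower in organoids, the mesothelial sums are 268 to 333 CPM in tissue and 228 to 252 CPM in organoids, and epithelial junction and keratin genes lie higher in organoids.

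Motile cilium genes fell across the board but, in contrast to muscle and stroma, most of them were still read in organoids. Of 102 genes of the motile cilium 96 had a row of counts, 71 were tested, 65 were lower and 1 was higher (91.5% lower against 24.2% of all genes), with 70 lower and 0 higher under the epithelial scaling. The median log2 fold change was -2.33, and the summed level went from 4758, 5971 and 3799 CPM to 849, 1396 and 1147 CPM. Leaving out a library gave 55 to 66 lower members.

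The master regulator Foxj1 (chr11:116330704-116335399, minus strand) stood at 156, 191 and 88.6 CPM in tissue and at 46.1, 56.1 and 41.5 CPM in organoids. This was a log2 fold change of -1.61 (SE 0.27, adjusted p = 0.000418), and the groups did not overlap. Its partners Rfx2 (-1.87, SE 0.25, adjusted p = 9.6e-05) and Rfx3 (-2.33, SE 0.32, adjusted p = 0.000108) fell by a similar amount. Among other multiciliation genes Myb was tested and called lower. Its log2 fold change was -1.69 to -0.95 when each library was left out in turn, and the call did not hold in every such fit. Mcidas and Ccno were too low to be tested. Mcidas had 0.630, 0 and 0 CPM in tissue and 3.27, 0.758 and 1.17 CPM in organoids, and Ccno had 0, 1.19 and 0 CPM against 6.53, 12.1 and 2.34 CPM. The transcription factor gene Trp73, also not tested, was at 9.45, 10.7 and 4.43 CPM in tissue and 0.408, 0 and 1.75 CPM in organoids.

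Parts of the beating axoneme fell too. All 11 dynein arm genes tested were lower, with a median of -3.24, and their sum fell from 895, 1158 and 777 CPM to 62.0, 173 and 123 CPM. The outer arm heavy chain Dnahc5, whose current symbol is Dnah5, had 88.2, 144 and 60.9 CPM in tissue and 1 read among the organoid lines. Sntn, a protein of the ciliary tip, fell from 183, 303 and 146 CPM to 1.63, 6.83 and 8.19 CPM (-5.34, SE 0.44, adjusted p = 2.12e-06). All 16 tested genes of rulers, spokes and the central pair were lower, with a median of -2.23, and so were 6 of 8 genes of arm assembly and docking, with a median of -1.87. The 4 tested regulators had a median of -1.74, and differences between these groups of genes were not tested. Among microtubule inner and other axonemal proteins 28 of 32 were lower, Sntn and Tppp3 among them. Tppp3 fell from 602, 701 and 454 CPM to 10.6, 59.2 and 37.4 CPM (-4.10, SE 0.44, adjusted p = 1.91e-05). Organoids 1 had the lowest level of the 3 lines for Tppp3, Sntn and the dynein arm sum.

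Not every member moved. The assembly factor Dnaaf3 was kept at 16.4, 23.7 and 13.3 CPM in tissue and 11.8, 17.4 and 20.5 CPM in organoids (-0.11, 95% interval -0.87 to 0.65). The calcium-binding protein gene Capsl fell by 0.86 (SE 0.23, adjusted p = 0.00915) and was not called without tissue 1 or tissue 2. The only riser, the β-tubulin gene Tubb4b (0.76, SE 0.17, adjusted p = 0.00379), encodes a tubulin that cells without motile cilia also make, and it turned to -0.48 under the epithelial scaling.

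RFX factors bind the X-box, which holds the letters GTTGCC. On both strands of the 250 bases before the start site these letters were found in 35 of 97 RefSeq promoters of motile cilium genes (36.1%) and in 10.4% of all promoters, and 84 of the 102 genes matched a promoter. Members with a match had a median log2 fold change of -2.91 (23 of 24 tested lower) and members without one a median of -2.01 (32 of 35). A pair of axoneme genes with no count in organoids is shown from RefSeq with each match in capitals, the dynein heavy chain Dnahc10 (at least 9.83-fold lower) at chr5:124725025-124725084 and the central pair protein Spag16 (at least 8.66-fold lower) at chr1:69826827-69826912, both on the plus strand of GRCm38.p6.
Dnahc10: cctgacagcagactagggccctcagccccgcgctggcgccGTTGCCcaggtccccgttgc
Spag16: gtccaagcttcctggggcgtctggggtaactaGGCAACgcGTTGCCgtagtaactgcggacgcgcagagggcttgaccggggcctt
In Spag16 the letters occur on both strands, GGCAAC being the reverse complement of GTTGCC. A match describes the letters only and does not show binding.

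Epithelial junction and keratin genes were richer in organoid RNA. Of 29 such genes 25 were tested, 17 were higher and 1 lower (68.0% higher against 18.7% of all genes), and the summed level rose from 2456 to 3101 CPM to between 6907 and 8883 CPM. By construction the epithelial scaling removed most of this, leaving 6 higher and 7 lower. The simple keratins Krt7 and Krt18 rose, as did Krt20, a keratin outside the list that was named after its values were seen (4.85, SE 0.47, adjusted p = 7.16e-06). Krt7 went from 116, 106 and 117 CPM to 1160, 1730 and 1607 CPM (3.73, SE 0.20, adjusted p = 1.46e-07), and Krt18 from 272, 273 and 218 CPM to 1064, 1593 and 1515 CPM (2.45, SE 0.20, adjusted p = 2.11e-06). Both stayed higher under the epithelial scaling, whereas Krt8 (1.12, SE 0.17, adjusted p = 0.00026) turned to -0.12. The tight junction claudin Cldn4 rose from 25.8, 22.5 and 12.2 CPM to 158, 368 and 442 CPM (3.95, SE 0.39, adjusted p = 1.09e-05). E-cadherin, Cdh1, rose by 1.65 (SE 0.17, adjusted p = 1.14e-05), a call not reached under the epithelial scaling (0.42). Epcam was within the bounds of a kept gene at 0.47 (95% interval 0.06 to 0.88). The desmosomal plakin Dsp was the member that fell (-1.70, SE 0.44, adjusted p = 0.0079), with tissue 3 at 75.3 CPM inside the organoid range of 44.5 to 104 CPM.

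Of 15 oviduct transcription factors tested, 5 were kept and 5 were lower (33.3% each, against 28.5% and 24.2% of all genes), shares near those of all genes. Pax8 (chr2:24420560-24475599, minus strand) stood at 157, 136 and 174 CPM in tissue and at 149, 148 and 166 CPM in organoids, a log2 fold change of -0.02 (95% interval -0.39 to 0.35), with overlapping groups. Emx2, which patterns the reproductive tract, was kept at -0.01 (95% interval -0.47 to 0.45). Also kept were Klf5 (0.26) and Wt1 (-0.47, 95% interval -0.88 to -0.07). Relative to epithelial genes these levels were not equal, since the epithelial scaling gave -1.26 for Pax8 and -1.25 for Emx2, both called lower. These values lie near the median of all genes tested on that scale, -1.24. In 9 libraries of tissue and organoids Pax8 ranged only from 134 to 174 CPM, the Cas9-GFP lines included.

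Other factors of the Müllerian tract changed on the TMM scale. Sox17 fell from 711, 635 and 668 CPM to 240, 167 and 190 CPM (-1.75, SE 0.18, adjusted p = 1.17e-05). Meis1 fell by 1.22 (SE 0.29, adjusted p = 0.00513). The estrogen receptor gene Esr1 fell from 144, 171 and 187 CPM to 60.4, 97.8 and 69.0 CPM (-1.15, SE 0.21, adjusted p = 0.000961). For these 3 genes every tissue library lay above every organoid library. Tbx3 went from 8.86 to 10.1 CPM to 0, at least 5.41-fold lower. The progesterone receptor Pgr varied within tissue (203, 119 and 550 CPM) and was not called against organoids (604, 361 and 430 CPM, log2 fold change 0.69, adjusted p = 0.21), but it was called higher without tissue 3 (1.53). Msx2 rose by 3.46 (SE 0.44, adjusted p = 5.55e-05). In all, 22 of the 23 factors had a row of counts and 2 of those tested were higher, against 1 higher and 12 lower under the epithelial scaling, 1 higher without tissue 1 and 8 lower without organoids 1.

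Secreted products were reordered, with the leading oviduct glycoprotein reduced and 5 of 7 tested defence proteins raised, the other 2 being lower. Ovgp1 (chr3:105973711-105987423, plus strand), oviductal glycoprotein, had the highest level of any gene in tissue 1 and 2 and the next highest in tissue 3, at 96680, 102956 and 65971 CPM and stood at 19634, 17834 and 13046 CPM in organoids (-2.39, SE 0.25, adjusted p = 1.31e-05). The tissue libraries lay above the organoid lines, where it was still among the 10 highest genes. Lyz1, a lysozyme, went from 20.2, 38.0 and 48.8 CPM to 0, at least 20.3-fold lower. The antiprotease Slpi fell by 4.00 (SE 0.56, adjusted p = 9.08e-05).

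Of the 23 genes of the list 16 were tested and 11 were higher (68.8% against 18.7% of all genes). The 3 lower ones, given above, made up 18.8% of those tested, against 24.2% of all genes. Lcn2, lipocalin, which binds bacterial iron carriers, went from 985, 948 and 170 CPM to 3547, 5950 and 5164 CPM (2.80, SE 0.49, adjusted p = 0.000626). Lactoferrin, Ltf, went from 999, 879 and 327 CPM to 3190, 4857 and 4270 CPM (2.48, SE 0.34, adjusted p = 0.000113). Tissue 3 was the lowest tissue library for both, and the organoid lines lay above all tissue libraries. The whey acidic protein Wfdc2 rose by 2.72 (SE 0.25, adjusted p = 4.89e-06), surfactant protein D, Sftpd, by 3.10 (SE 0.33, adjusted p = 1.58e-05) and ceruloplasmin, Cp, by 4.47 (SE 0.29, adjusted p = 4.62e-07). Osteopontin, Spp1, had 2 reads in tissue 1, 1 in tissue 2 and 0 in tissue 3, and 200, 621 and 626 CPM in organoids, a ratio of 483 by counting with an exact interval of 165 to 2342. The complement component C3 rose by 0.86 (SE 0.21, adjusted p = 0.00495) and turned to -0.34 under the epithelial scaling, where 7 members of the list were higher and 3 lower.

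**Figure D3:**
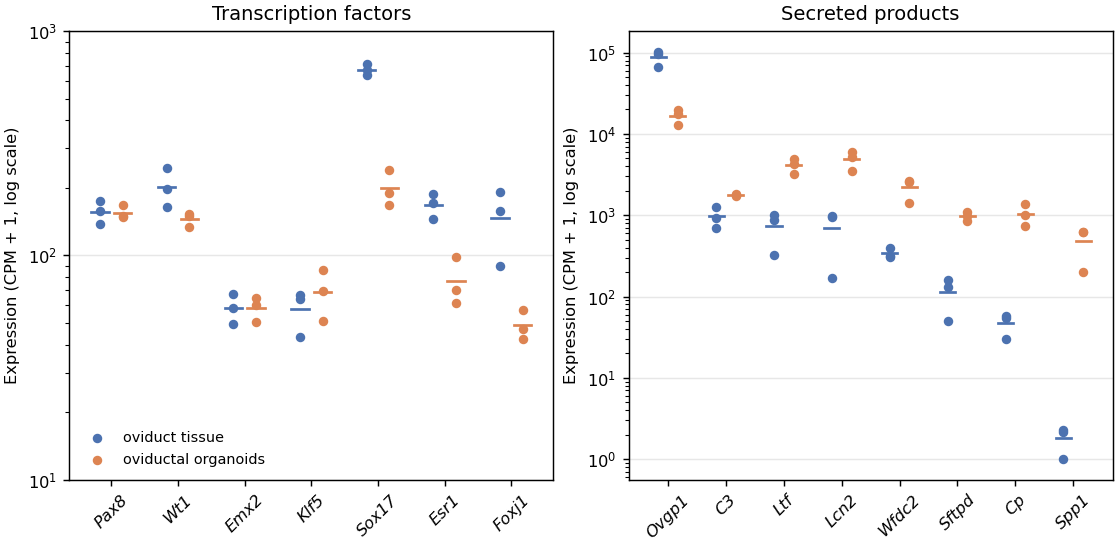
Levels (CPM + 1, log scale) of transcription factors (left) and secreted products (right) in each oviduct tissue library (blue) and oviductal organoid line (orange), with a bar at the group mean. Pax8, Emx2 and Klf5 overlap between the groups, Sox17, Esr1 and Foxj1 lie lower in organoids, and every secreted product shown other than Ovgp1 lies higher in organoids.

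Genes that respond at once to growth factors, stress or handling were raised in organoids. Of 21 immediate early genes 19 were tested, 16 were higher and 1 lower (84.2% higher against 18.7% of all genes), and 14 were higher and 3 lower under the epithelial scaling. The AP-1 subunit Fos went from 18.9, 43.9 and 57.6 CPM to 704, 636 and 621 CPM (4.08, SE 0.31, adjusted p = 1.22e-06). Egr1 went from 6.93, 10.7 and 23.3 CPM to 237, 271 and 294 CPM (4.37, SE 0.33, adjusted p = 9.86e-07), and Atf3, a factor of the stress response, from 13.2, 10.7 and 25.5 CPM to 343, 305 and 488 CPM (4.54, SE 0.31, adjusted p = 5.21e-07). The 3 lines were close to each other for these genes and far above all tissue libraries. Jun rose by 1.16 (SE 0.19, adjusted p = 0.000421) and turned to -0.11 under the epithelial scaling. Jund (-0.08) and Socs3 (0.04) were kept. The flow-responsive factor Klf2, which is abundant in endothelium, fell by 1.22 (adjusted p = 0.0236), a call lost without tissue 1, tissue 3 or organoids 3.

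Feedback genes of EGF and ERK signalling moved with them. Of 19 such genes 11 were tested, 10 were higher and 1 lower (90.9% higher, where all genes gave 18.7%), against 6 and 1 under the epithelial scaling. The ERK phosphatase Dusp6 rose from 58.6, 55.8 and 29.9 CPM to 380, 632 and 670 CPM (3.52, SE 0.29, adjusted p = 2.14e-06), Phlda1 by 3.19 (SE 0.18, adjusted p = 1.62e-07) and the inhibitor Spry2 by 1.75 (SE 0.18, adjusted p = 1.24e-05). Among ligands of the EGF receptor the directions differed. Hbegf rose from 5.04, 7.12 and 3.32 CPM to 49.4, 112 and 131 CPM (4.22, SE 0.45, adjusted p = 1.75e-05), while amphiregulin, Areg, fell from 8.19, 15.4 and 9.97 CPM to 1.63, 3.79 and 4.09 CPM (-1.82, SE 0.50, adjusted p = 0.00962), a call lost without tissue 2.

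Steep rises were also seen in the TGF-β response list, in the matricellular protein genes Ctgf and Cyr61. Ctgf (chr10:24595442-24598683, plus strand), connective tissue growth factor, went from 35.9, 35.6 and 23.3 CPM to 2005, 4956 and 4709 CPM (6.93, SE 0.39, adjusted p = 1.71e-07). Cyr61 went from 13.2, 9.49 and 15.5 CPM to 755, 1112 and 880 CPM (6.14, SE 0.25, adjusted p = 2.88e-08). Ankrd1, an ankyrin repeat protein that was chosen by the size of its rise alone, had no count in tissue and 160, 482 and 347 CPM in organoids, at least 113-fold higher. Organoids 1 had the lowest level of the 3 lines for Ctgf and Ankrd1. The list of 15 TGF-β response genes, of which 11 were tested, split into 6 higher (54.5% against 18.7% of all genes) and 4 lower (36.4% against 24.2%). Under the epithelial scaling 5 were higher and 4 lower. Lower were Tgfbi (-2.28, SE 0.29, adjusted p = 5.73e-05), Pmepa1 (-1.56), the protease inhibitor Timp3 (-5.83, SE 0.44, adjusted p = 1.05e-06) and Tgfb1i1, which had no organoid count.

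BMP, WNT and estrogen response genes gave mixed counts. Of 12 BMP response genes 7 were tested, 4 were lower (57.1% against 24.2% of all genes) and 1 higher, with 6 and 1 under the epithelial scaling and 2 higher without tissue 3 or organoids 1. Id1 fell from 136, 109 and 170 CPM to 24.9, 52.3 and 73.1 CPM (-1.48, SE 0.33, adjusted p = 0.00297), Id4 by 1.83 (adjusted p = 0.00213), and Id3 had 3 reads in all in organoids. Of 19 WNT response genes 9 were tested, 3 were lower (33.3%) and 2 higher (22.2%), shares near the 24.2% and 18.7% of all genes, against 6 and 0 under the epithelial scaling, and no gene was higher without tissue 1 and 1 was lower without tissue 1 or tissue 2. The WNT antagonist Nkd1 fell from 58.0, 41.5 and 49.9 CPM to 0, 0 and 0.585 CPM, a ratio of 283 by counting with an exact interval of 50.1 to 11231. Axin2 and Lgr5 were too low to be tested. Of 18 estrogen response genes 12 were tested, 7 were higher (58.3% against 18.7% of all genes) and 3 lower (25.0%), with 4 and 4 under the epithelial scaling and 1 lower without tissue 2. They include Lcn2, Ltf and C3, counted above, and Padi1, a peptidylarginine deiminase of the uterus, which rose by 2.61 (SE 0.27, adjusted p = 1.24e-05), while Greb1 was not called (0.35, adjusted p = 0.392).

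Sterol and sugar metabolism rose together. Of 24 cholesterol synthesis genes 22 were tested, 17 were higher and 0 lower (77.3% higher against 18.7% of all genes), with 9 higher and 2 lower under the epithelial scaling. The mevalonate enzyme gene Hmgcs1 went from 24.6, 33.2 and 31.0 CPM to 212, 149 and 160 CPM (2.57, SE 0.22, adjusted p = 3.48e-06). The highest tissue library lay below the lowest organoid library. Fatty acid synthesis did not follow as a list. Of 15 genes 13 were tested, 3 were higher (23.1%), 2 lower (15.4%) and 3 kept (23.1%). All genes gave 18.7%, 24.2% and 28.5%, so the shares were near those of all genes. Under the epithelial scaling 0 were higher and 6 lower. On the TMM scale 1 was lower without tissue 1, tissue 2 or organoids 3. Scd1 was kept at 0.18 (95% interval -0.58 to 0.95) and Acly at 0.17.

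The sterol regulators of the SREBP family bind the sterol response element, and its letters CACCCC were found in 4 of 19 RefSeq promoters of the cholesterol list (21.1%, with 16 of 24 genes matched) against 23.3% of all promoters, so the share in the list was near that of all genes. They are shown in capitals for Hmgcs1, the enzyme with a pair of matches, at chr13:119690208-119690293 on the plus strand of GRCm38.p6, from RefSeq. The regulator Srebf2 itself rose by 1.66 (SE 0.49, adjusted p = 0.0149).
Hmgcs1: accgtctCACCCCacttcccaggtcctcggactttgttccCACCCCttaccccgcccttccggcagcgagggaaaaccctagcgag

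Of 26 glycolysis and hypoxia genes 24 were tested, 21 were higher and 0 lower (87.5% higher against 18.7% of all genes), with 10 higher and 2 lower under the epithelial scaling. Hexokinase 2, Hk2, went from 7.56, 11.9 and 5.54 CPM to 178, 267 and 214 CPM (4.73, SE 0.29, adjusted p = 2.82e-07). The peptide hormone Adm went from 5.67, 4.75 and 5.54 CPM to 54.3, 228 and 180 CPM (4.80, SE 0.56, adjusted p = 3.18e-05) and the oxygen sensor Egln3 from 20.2, 42.7 and 5.54 CPM to 83.3, 499 and 377 CPM (3.83, SE 0.65, adjusted p = 0.0005). Organoids 1 was the lowest line for all 3 genes and for the sum of the list, which was 10645 CPM there against 16840 and 14808 CPM in the other lines and 2901 to 3952 CPM in tissue. Carbonic anhydrase 9, Car9, a gene raised by hypoxia, was not called (-0.41, adjusted p = 0.692).

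Genes of stratified or wounded epithelium were raised without the basal keratins. Of 25 such genes 15 were tested, 9 were higher (60.0% against 18.7% of all genes) and 0 lower. Under the epithelial scaling 5 were higher and 3 lower. On the TMM scale 4 were lower without tissue 3 or organoids 1 and 5 without organoids 2 or organoids 3. Sprr1a, a cornified envelope protein, went from 1.26, 3.56 and 0 CPM to 269, 340 and 447 CPM (7.79, SE 0.43, adjusted p = 1.58e-07). Annexin 1, Anxa1, rose by 1.96 (SE 0.24, adjusted p = 4.12e-05). Krt15 was not called (10.1, 7.12 and 2.22 CPM in tissue, 19.6, 5.31 and 5.85 CPM in organoids), and Trp63 had no count in organoids.

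Of 18 basement membrane genes 16 were tested. Of these 16 genes 8 were lower, where all genes gave 24.2%, and 3 were higher (18.8%, near the 18.7% of all genes), and 12 and 1 under the epithelial scaling. Collagen IV chains nearly vanished, Col4a2 going from 254, 212 and 186 CPM to 0, 0 and 2.34 CPM (-8.06, SE 0.50, adjusted p = 2.82e-07). Among laminin chains Lama5 rose from 26.5, 29.7 and 33.2 CPM to 75.1, 130 and 139 CPM (1.94, SE 0.27, adjusted p = 0.000108) and Lamb1 by 1.49 (SE 0.20, adjusted p = 8.5e-05), the latter not called under the epithelial scaling (0.25). Of 21 extracellular proteases and inhibitors 17 were tested, 7 were lower and 3 higher, which is 41.2% and 17.6% against 24.2% and 18.7% of all genes. Under the epithelial scaling 11 were lower and 2 higher, and on the TMM scale 7 were higher without organoids 1. Mmp2, a protease of stroma, fell by 5.43 (SE 0.46, adjusted p = 2.45e-06), and Mmp7, a protease of epithelia, rose from 5.04, 1.19 and 0 CPM to 78.4, 63.7 and 81.3 CPM (4.79, SE 0.46, adjusted p = 8.03e-06).

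Cell division genes showed no common shift. Of 60 such genes 42 were tested, 5 were higher (11.9%), 4 lower (9.52%) and 2 kept (4.76%), beside 18.7%, 24.2% and 28.5% of all genes. The median was -0.11. Under the epithelial scaling 23 were lower and 1 higher, where 6568 of all 9477 genes were lower and 326 higher, so a fall particular to this list is not shown. The counts moved to 3 higher and 2 lower without tissue 1, to 3 higher and 7 lower without tissue 3, and to 8 lower without organoids 1. The proliferation marker Mki67 had 12.6, 9.49 and 1.11 CPM in tissue and 12.2, 0 and 2.92 CPM in organoids (-0.51, SE 0.84, adjusted p = 0.656). Cdk1 was kept at 0.40 (95% interval -0.09 to 0.90). Mitotic genes summed to 546 CPM in organoids 1, against 279 and 309 CPM in the other lines and 192 to 338 CPM in tissue, so the lines spread more than the groups. Cyclin D1, Ccnd1, rose by 1.12 (SE 0.24, adjusted p = 0.00251) and turned to -0.0998 under the epithelial scaling.

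Interferon response genes were lower in organoids. Of 32 such genes 23 were tested, 14 were lower and 2 higher (60.9% lower against 24.2% of all genes), with 21 and 1 under the epithelial scaling and 1 higher without tissue 1, and the median was -1.24. Ifit1 fell from 131, 117 and 62.0 CPM to 9.80, 8.34 and 14.6 CPM (-3.24, SE 0.33, adjusted p = 1.12e-05) and Oasl2 by 2.55 (SE 0.22, adjusted p = 2.96e-06). Ifitm3, a membrane protein that blocks viral entry, went from 1584, 1698 and 884 CPM to 641, 470 and 397 CPM (-1.47, SE 0.26, adjusted p = 0.000599). Against this direction tetherin, Bst2, rose from 55.4, 41.5 and 112 CPM to 393, 290 and 312 CPM (2.26, SE 0.30, adjusted p = 8.06e-05). The light chain of class I molecules, B2m, was kept (-0.28, 95% interval -0.67 to 0.12). Macrophage transcripts moved with this list as given above, and their part in it was not tested.

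**Figure D4:**
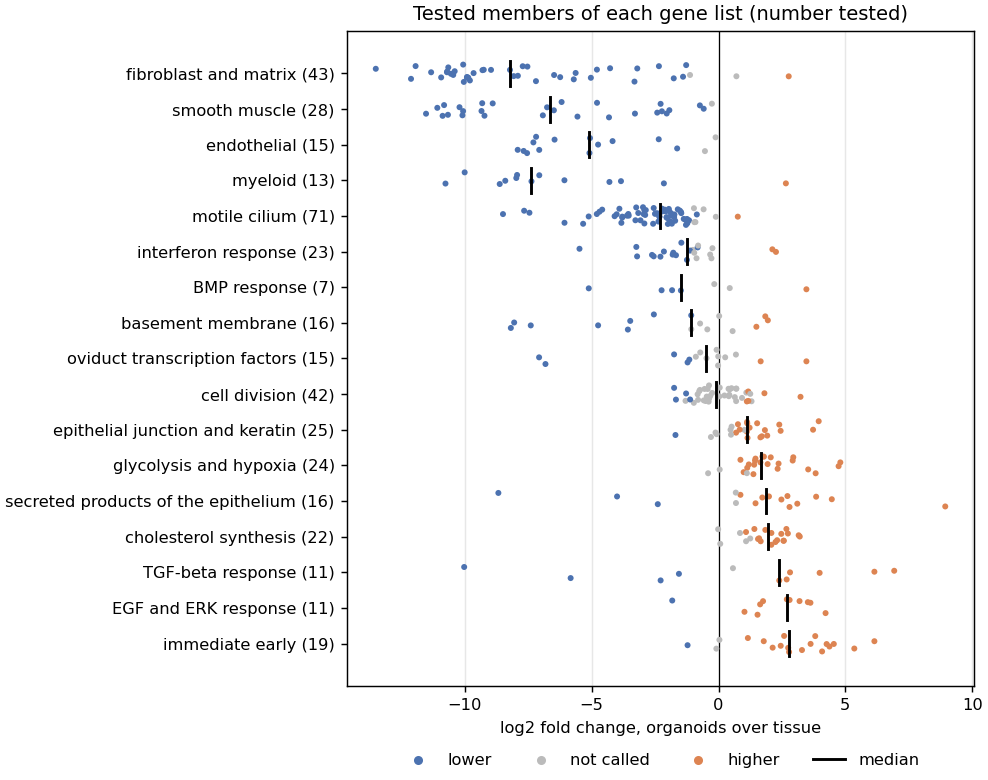
Each point is a tested member of a gene list at its log2 fold change of organoids over tissue, coloured by its call, with a bar at the list median and the number tested in parentheses. The lists shown, which leave out the smaller cell type lists, run from fibroblast and matrix genes (median -8.22, with 20 tested members that have no organoid count, so their position depends on the prior count) to immediate early genes (median 2.78), and cell division genes straddle 0.

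Of 28 glutathione and NRF2 genes 22 were tested, 8 were kept (36.4% against 28.5% of all genes), 8 higher (36.4% against 18.7%) and 4 lower (18.2% against 24.2%), with 0 higher and 12 lower under the epithelial scaling. Gclc, the limiting enzyme of glutathione synthesis, was kept at 0.09 (95% interval -0.52 to 0.69) and Gsta4 at 0.03, while the cystine carrier Slc7a11 fell from 44.1, 59.3 and 56.5 CPM to 8.16, 1.52 and 0.585 CPM (-3.71, SE 0.52, adjusted p = 0.000117). Of 24 genes of the ATF4 amino acid response 15 were tested, with 6 higher, 3 lower and 4 kept (1 higher and 7 lower under the epithelial scaling). Among the 15 mitochondrially encoded genes, all tested, 7 were higher (46.7%), 2 lower (13.3%) and 5 kept (33.3%), beside 18.7%, 24.2% and 28.5% of all genes. Under the epithelial scaling 1 was higher and 8 lower. On the TMM scale 1 was lower without any 1 of tissue 1, tissue 2, tissue 3 or organoids 3. The ribosomal RNA mt-Rnr2 rose from 71500, 57867 and 77421 CPM to 134675, 185621 and 153350 CPM (1.20, SE 0.22, adjusted p = 0.000836) and turned to -0.06 under the epithelial scaling, while the Cytb transcript mtCytb was kept (-0.09).

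The most abundant kept genes were housekeeping transcripts. They include the translation factor Eef2, which at 2312, 2097 and 2423 CPM in tissue and 3049, 3350 and 3066 CPM in organoids was both kept and called higher (0.47, SE 0.16, adjusted p = 0.0279), the ribosomal protein gene Rpl41 (-0.33, 95% interval -0.69 to 0.02) and Tpt1 (-0.20). With the epithelial scaling Rpl41 was -1.56 and Tpt1 -1.45.

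The Cas9-GFP organoids offer a further set of oviductal lines against the same tissue libraries, so the comparisons share the tissue and their values are given side by side only. Of 8283 genes tested 1964 were higher (23.7%) and 2453 lower (29.6%) in Cas9-GFP organoids. Muscle and stroma were nearly absent here too, with 24 of 27 smooth muscle genes and 38 of 41 fibroblast and matrix genes lower. Over the 62 motile cilium genes tested in both sets the median with bounds was -2.39 in C57BL/6 lines and -4.10 in Cas9-GFP lines, and Foxj1 was at 14.4, 1.66 and 32.5 CPM in the latter. Dynlrb2, a light chain of dynein, was at 24.5, 98.6 and 69.0 CPM in C57BL/6 lines and at 0 in each Cas9-GFP line, against 438 to 547 CPM in tissue. For glycolysis and hypoxia the medians were 1.73 and 2.32, and for cholesterol synthesis 2.08 and 1.75. Cell division genes differed between the sets. Over the 33 genes tested in both sets 14 were higher and 3 lower in Cas9-GFP lines, against 4 and 3 in C57BL/6 lines. Among the 14 mitotic genes tested in both sets 11 were higher in Cas9-GFP lines and 3 in C57BL/6 lines, with medians of 1.44 and 0.42. None was lower in either set.

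Some products of the epithelium were read at far lower levels in the Cas9-GFP lines. Ovgp1 was at 73.8, 91.1 and 63.1 CPM in Cas9-GFP organoids, a log2 fold change against tissue of -10.34 (adjusted p = 1.2e-09), where the C57BL/6 lines gave -2.39. BC048546, a gene that was among the highest in C57BL/6 lines (8919, 10573 and 6855 CPM), was at 14.4, 1.66 and 3.05 CPM. Pax2 was at 15.9, 10.6 and 6.43 CPM in C57BL/6 lines and 0 in every Cas9-GFP line, against 17.8 to 24.4 CPM in tissue. Immediate early genes had a median of 1.11 in Cas9-GFP lines and 2.59 in C57BL/6 lines over 15 genes. For EGF and ERK feedback the medians were 0.55 and 2.22 over 8 genes, of which 3 were called higher in Cas9-GFP lines and 8 in C57BL/6 lines. Jun was below tissue at 137, 54.7 and 44.8 CPM (-3.72, adjusted p = 1.96e-06), Atf3 at 10.8, 1.66 and 7.12 CPM (-1.28, adjusted p = 0.0414), and Ctgf reached 180, 59.7 and 142 CPM. B2m was at 67.5, 54.7 and 101 CPM, against 294 to 422 CPM in C57BL/6 lines. The mouse strain, the transgene, the derivation of the lines and library depth (600579 to 1038141 counts) differed between the sets and cannot be told apart.

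**Figure D5:**
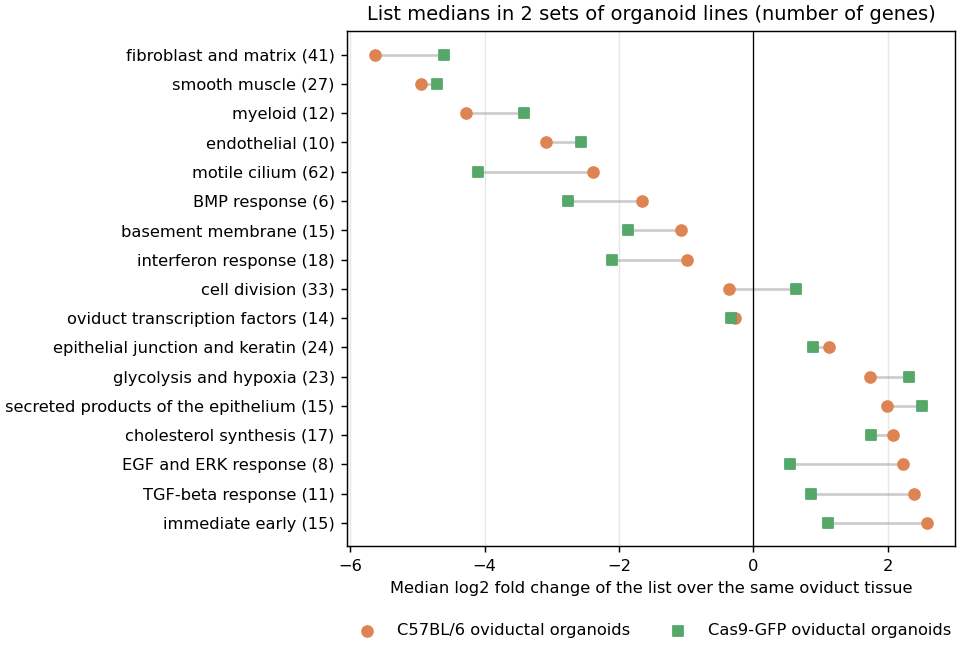
Median log2 fold change over oviduct tissue of each list, over the genes tested in both sets (number in parentheses), for the 3 C57BL/6 (circles) and 3 Cas9-GFP (squares) oviductal organoid lines, with genes without counts set at their bound. Fibroblast and matrix genes lie at -5.63 and -4.60, motile cilium genes lie at -2.39 and -4.10, and cell division genes at -0.37 and 0.63.

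The OSE libraries served to ask which changes from tissue to organoids differ between oviduct and OSE. The OSE tissue is labelled bulk tissue. Inhbb, of the granulosa list, was at 1040, 1209 and 1482 CPM in OSE tissue and at 30.3 and 67.7 CPM in OSE organoids. Both tissues are mixtures of cells, so unlike mixtures and unlike effects of culture on the epithelia cannot be told apart. A fit over 11 libraries tested the difference of the log2 fold changes, oviduct minus OSE, and 1338 of 11458 genes were called in either direction (11.7%), 573 with a positive and 765 with a negative difference. The counts moved with single libraries: 346 positive and 489 negative without oviduct tissue 1, 354 positive without OSE tissue 1, 370 without OSE tissue 2, 336 and 492 without OSE tissue 3, and 913 and 1223 positive without the first or second OSE line. Of 20 immediate early genes tested 18 were called, all with a positive difference, for example Fos with 4.06 and Egr1 with 4.34. Of 23 cholesterol synthesis genes 13 were called, all positive, and for Hmgcs1 the difference was 1.83. Of 29 epithelial junction and keratin genes 19 were called, all negative, among them Krt8 with -2.10. Of 78 motile cilium genes 15 were negative and 3 positive, and of 48 fibroblast and matrix genes 7 were negative and 1 positive. The 2 OSE lines lie far apart for some genes, such as Hoxc8 with 307 CPM in the first line and 5.28 CPM in the second, so these calls rest on few libraries. In simulated data this test missed nearly all differences of moderate size, so a gene without a call is undecided.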

How the data were processed

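Bulk RNA from oviduct tissue, oviductal organoids, Cas9-GFP oviductal organoids, OSE tissue and OSE organoids was sequenced by CEL-Seq2. The authors deposited raw counts per gene in 1 table, without correction for molecular identifiers, and the submitters' processing notes name BWA, GRCm38 and DESeq2 1.18.0. Of 27 columns of samples 14 were used and 13 were not used here. A spike-in row with 1 count was left out, which left 18305 genes, of which 17121 symbols matched GENCODE directly and 963 through an older symbol. How the counting treated reads shared between near-identical genes is not given in the sources used here.

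Groups were taken from the labels of the samples. Counts were filtered with filterByExpr, scaled by TMM and fitted by quasi-likelihood in edgeR 4.0.16 (R 4.3.3, limma 3.58.1) on the 6 libraries, with Benjamini-Hochberg adjustment and a threshold of 0.05. No batch was named in the labels used. The study's methods speak of independent tissue samples or organoid lines, and p-values measure the spread between them. Cas9-GFP organoids were fitted with the same tissue, and the difference from the OSE in 1 fit over 11 libraries. Where 1 group had 1 to 3 counts in all, a ratio with an exact 95% interval was computed, and intervals and the floor of 3 counts cover counting error only. The exact intervals treat each read as a separate molecule. Since the counts were not corrected for molecular identifiers, these intervals can be too narrow. Replicate libraries differed by more than sampling noise. Scripts were tested on simulated data. Alternatives were RLE, total count and epithelial scaling, no filter, a replicate block, 14 libraries, DESeq2 1.42.0 and leaving out each library. Leaving out mitochondrial genes and Ovgp1 was added after seeing the data. Promoters came from RefSeq, and motifs were sought in 250 bases. Tables and figures were made with Python 3.11.15, pandas 2.3.3, numpy 2.4.6, scipy 1.17.1 and matplotlib 3.10.9.

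Members and gene lists (35 lists, 799 genes, 770 in the table) were chosen with earlier results of these data known. Genes were named where they define a list, are among the 3 members of a list with the largest rise or fall, among the 15 largest rises or falls with non-overlapping groups and a mean of at least 50 CPM, among the 10 highest of a group or the 15 highest kept, and, for the difference from the OSE, among the 10 largest each way with at least 50 CPM in a group. The following were named after their values were seen: Anxa1, B2m, Ccno, Dnaaf3, Dynlrb2, Egfl7, Flna, Gsta4, Ifitm3, Jund, Klf5, Krt14, Krt15, Krt20, Mcidas, Meis1, Oasl2, Pdlim7, Phlda1, Plvap, Rfx3, Sftpd, Sntn, Socs3, Spry2, Srebf2 and Wt1. Some genes chosen by these rules are not reported here.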

Additional observations from a re-analysis of the deposited data

Results flagged for a closer look

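Each gene here had a change from tissue to organoids that differed between oviduct and OSE by the test of the difference itself. The difference is given as a log2 difference of the fold changes, oviduct minus OSE, in the fit over 11 libraries (edgeR). No cause was tested. Among the genes reported here that define the lists the negative differences were Krt8 -2.10, Epcam -2.44, Cdh1 -3.19, Grhl2 -4.09, Pax8 -5.68, Sox17 -7.14, Emx2 -1.45, Esr1 -3.10, Pgr -6.31, Ovgp1 -6.54, Lcn2 -7.36, Wfdc2 -6.22, Foxj1 -4.15, Rfx2 -2.41, Rsph1 -3.74, Tagln -4.80, Col3a1 -5.00, Dcn -7.07, Ccnd1 -4.42, Areg -6.98, Ltf -9.73, Pgk1 -1.74, Slc7a11 -6.08, Psat1 -2.59, Ly6a -6.81 and Col4a1 -8.29. The positive ones were Ccnb1 3.09, Cdk1 1.96, Fos 4.06, Jun 2.87, Egr1 4.34, Atf3 5.21 and Hmgcs1 1.83. Whether the calls of these list-defining genes hold without single libraries was not examined. Some of the genes, such as Col3a1, had almost no counts in oviductal organoids. For Pax8 the OSE side carries the difference, since the log2 fold change in the oviduct was -0.02.

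The steepest negative differences over all genes with a mean of at least 50 CPM in a group were Ildr2 -12.32, Hoxc8 -11.72, Gdf10 -13.74, Pigr -13.59, Ly6d -13.34, Entpd3 -13.19, Tmc5 -12.97, Ces1f -12.60, Foxa2 -12.00 and Reg1 -11.96. The steepest positive ones were Inhbb 8.24, Gm15698 12.48, Serpine2 9.88, Lect1 9.81, Pak3 9.39, Slc38a3 9.35, Gdf15 7.80, Armcx2 7.79, Pik3c2g 7.53 and Lama1 7.15. Several rest on a single OSE line. Pigr, the receptor that carries immunoglobulin across epithelia, stood at 1181 CPM in the first OSE line and 4.80 CPM in the second. Ildr2 also differed between these lines, at 790 and 15.8 CPM, but the oviduct side carries its difference. Its log2 fold change was -11.58 in the oviduct and 0.74 in the OSE. With each library left out in turn its difference was -13.25 to -7.66. The call for Pigr ended without any 1 of oviduct tissue 2 or 3, the 3 OSE tissues or the 3 oviductal lines, that for Reg1 without any 1 library other than oviduct tissue 2 or the second OSE line, and those of Gdf10 (-6.60) and Ly6d (-4.76) without the first OSE line, the latter also without oviduct tissue 1. Among the positive ones the calls of Lect1 (6.21), Slc38a3 (6.85) and Lama1 (4.67) ended without oviductal organoids 1, 2 and 3 respectively, and that of Slc38a3 also without any 1 of the OSE tissues. Differences beside groups without a count depend on the prior count.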

How the results depend on the processing

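The epithelial scaling moved the counts most, to 326 higher, 6568 lower and 727 kept genes, and 140 of the calls turned to the opposite direction. Requiring a log2 fold change beyond 1 left 1179 higher and 1855 lower genes. Under the epithelial scaling these named genes, each called on at least 1 of the scales, turned from a positive to a negative log2 fold change: Krt8 -0.12, Epcam -0.75, C3 -0.34, Cdk1 -0.80, Ccnd1 -0.0998, Greb1 -0.90, Jun -0.11, Sqle -0.13, Acly -1.05, Scd1 -1.09, Slc2a1 -0.0781, Gclc -1.18, Ly6a -1.10, mtNd1 -0.99, mtCo1 -0.18, Cldn7 -0.52, Krt19 -0.45, Tubb4b -0.48, Cenpa -0.00131, Sox9 -0.57, Spred1 -0.23, Scd2 -0.52, Acsl3 -0.17, Pfkl -0.34, Gapdh -0.23, Itga6 -0.0861, Ctsb -0.29, mt-Rnr2 -0.058, mtAtp8 -0.65, mtAtp6 -0.52, mtNd2 -0.82, mtNd5 -0.34, mtCo2 -0.38, S100a11 -0.76, Rpl23 -0.83, Eef2 -0.77, Eef1b2 -0.80 and Ppt1 -1.08. By construction that scaling divides by the epithelial genes, which lie higher in organoids on the TMM scale. A further 26 of 268 named genes lost their call and 17 gained one under it, while RLE scaling kept 267 of 268 and total counts 262.

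Leaving out each of the 6 libraries gave 1368 to 1954 higher, 1889 to 2543 lower and 1822 to 2439 kept genes. It ended the call of 26, 20 and 14 named genes without tissue 1, 2 and 3 and of 2, 13 and 14 without organoids 1, 2 and 3, and turned none. For the difference between oviduct and OSE the counts ranged from 336 to 1223 higher and from 489 to 1125 lower, where each fit without 1 of the OSE lines has a lone OSE line, taken to vary like the other groups. DESeq2 called 1450 higher and 2523 lower genes, a table with no filter on low counts 2206 and 3166, the fit over 14 libraries 1576 and 2439, and the table without mitochondrial genes and Ovgp1 1736 and 2332. Libraries share numbers in the column names only. With the number as a replicate block 1719 genes were higher and 2285 lower, of which 1682 and 2210 were called without it, and same-numbered libraries deviated together with r of 0.0099, 0.0893 and 0.0201, while organoids 1 correlated best with tissue 3 (0.0519), so the libraries were not treated as paired.

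Depth sets limits. With 825025 to 2472821 counts a library cannot show a gene below about 3 counts, so members not tested are not shown to be absent. Genes with few counts keep wide intervals, bounds on a fold depend on the depth of the shallower library, and a gene called neither changed nor kept is undecided. Tissue samples differed in basal keratin RNA, and the extraction kit moved with the group.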

Other observations

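Homeobox genes of the trunk and limb clusters are described here after their values were seen, and differences between the clusters were not tested. All 5 tested genes of the Hoxc cluster were lower in organoids. Hoxc8 (chr15:102990607-102994111 of GRCm38) was at 220, 212 and 195 CPM in tissue and had no count in organoids, at least 119-fold lower, and Hoxc6 fell from 66.1, 55.8 and 60.9 CPM to 0, 1.52 and 0 CPM. The 9 Hoxa genes summed to 165, 144 and 125 CPM in tissue and 0 in all organoid lines. Only 2 of them were tested, and 2 were lower, with Hoxa5 (chr6:52201754-52204587) at least 58.1-fold lower. Of 7 tested Hoxb genes 0 were lower, 1 was higher (14.3%) and 3 were kept (42.9%), where all genes gave 24.2%, 18.7% and 28.5%. Hoxb3 was at -0.23 (95% interval -0.86 to 0.39), and Hoxb6 rose from 15.1, 11.9 and 22.2 CPM to 52.2, 37.2 and 30.4 CPM (1.30, SE 0.32, adjusted p = 0.00554). Under the epithelial scaling 4 Hoxb genes were lower, 0 higher and 1 kept, and all tested Hoxa and Hoxc genes were lower. On that scale 6568 of all 9477 genes were lower. Hoxd4 was kept at -0.07 and called lower under the epithelial scaling. Which cells of the tissue hold the Hoxa and Hoxc RNA was not tested.

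Further genes with steep rises, also outside the lists, were the forkhead factor Foxc1, from 1.26, 3.56 and 5.54 CPM to 260, 544 and 515 CPM (7.12, SE 0.44, adjusted p = 3.23e-07), the protease Hgfac, an activator of hepatocyte growth factor (6.42, SE 0.33, adjusted p = 1.06e-07), and arginase, Arg1, from 25.2, 13.0 and 24.4 CPM to 1433, 907 and 845 CPM (5.63, SE 0.30, adjusted p = 1.44e-07). All 3 were also far above tissue in the Cas9-GFP lines. Crisp1, a cysteine-rich secretory protein, had no count in tissue or Cas9-GFP lines and 51.4, 31.9 and 74.3 CPM in C57BL/6 lines.

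Of 74 tested ribosomal protein genes 51 were kept (68.9%), 20 were higher (27.0%) and 12 lower (16.2%), beside 28.5%, 18.7% and 24.2% of all genes. Under the epithelial scaling 7 were kept, 0 higher and 64 lower. Their sums were 71769 to 86326 CPM in tissue and 76255 to 78229 CPM in organoids. The mitochondrial transcript mtNd6 was high in each library numbered 3, at 6.93, 5.93 and 131 CPM in tissue, 25.7, 44.7 and 222 CPM in organoids and 28.8, 48.1 and 373 CPM in Cas9-GFP organoids. No other label sets these libraries apart.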
